A study of Mus musculus with 8 samples.

Results

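The genes for the proteins of the cytosolic ribosome were followed in 8 RNA-seq libraries of mouse myocardium, taken after myocardial infarction (MI) or sham surgery. Members were chosen by gene name alone (Rpl, Rplp, Rps or Rpsa names and Rpl3l, without pseudogene names holding "-ps" and without the S6 kinases), which gave 85 of the 33249 genes in the table, 32 with small-subunit and 53 with large-subunit names. A mean of at least 0.5 FPKM (the authors' level per gene, scaled to gene length and library size) was reached by 82 of them and by 14028 genes in all, and these were tested. The other 3 members, Rpl10l, Rpl32l and Rpl39l, stayed below this level. In the opposite direction, the name rule misses ribosomal proteins with other names (Rps3a1, Fau, Rpl36al and Rack1 among them), which are described separately.

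Each cytosolic ribosome carries 1 copy of most of these proteins, so cells make them in near-equal amounts, and their messages are among the most abundant of any cell. Many of these messages begin with a C followed by a run of pyrimidines, the terminal oligopyrimidine (TOP) motif, through which mTORC1 and Larp1 set how strongly they are translated. Some members have paralogs with tissue-specific expression. The best known in heart and skeletal muscle is Rpl3l, a close relative of Rpl3, the large-subunit protein that reaches toward the peptidyl transferase centre.

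Hearts came from mice carrying floxed Piezo1 alleles (fl/fl) in all 4 groups, each with 2 libraries. CKO mice also carried a tamoxifen-inducible Cre under the cardiomyocyte promoter Myh6 and received tamoxifen at 4 weeks of age, whereas fl/fl animals were littermates without the transgene. Permanent ligation of the left anterior descending artery, or a sham operation, was done at 8 weeks of age, and the MI hearts were taken at day 42. The sham groups are labelled fl/fl-Sham and CKO-Sham, the infarcted groups fl/fl-MI and CKO-MI. No source used here says whether fl/fl mice received tamoxifen, which region of the heart was sampled or whether a library held 1 heart or several. P-values measure the spread between these libraries, which may in part be technical.

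The genotype labels were checked first. As CPM (counts scaled to the TMM-adjusted library size), Piezo1 ranged from 72.2 to 88.3 in sham hearts and from 53.5 to 64.8 after MI, and it was not lower in the libraries labelled CKO (log2 difference 0.10 in sham, adjusted p = 1.0, and 0.03 after MI, adjusted p = 0.972, edgeR). Esr1, whose receptor supplies the tamoxifen-binding piece of this Cre, was between 5.52 and 8.36 CPM in every sham library and in the one labelled fl/fl-MI 1, but reached 331 CPM in fl/fl-MI 2, 707 CPM in CKO-MI 1 and 402 CPM in CKO-MI 2, by label. Group names are thus used as deposited, and each direction between genotypes rests on labels that these genes do not bear out. Values of single libraries are given below in 1 order, by label: replicates 1 and 2 of fl/fl and then 1 and 2 of CKO, first for sham and then for MI. Deposited counts per library, whose unit may not be 1 read pair, ranged from 73821747 to 88117573, of which the ribosomal protein genes held 0.733% to 1.41%.

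The sequence at the start of these genes shows what they share beyond a name. RefSeq promoters (GRCm38.p6, 250 bases before to 50 bases after an annotated start) were matched by symbol for 63 of the 85 members. A run of at least 5 pyrimidines that opens with C within 10 bases of a listed start, on the coding strand, was present in 39 of the 63 (61.9%) and in 32.6% of all 27025 genes with a listed promoter. The letters CCGGAAG, on either strand of the full promoter, were found in 39.7% of members and 9.93% of all genes, ATGGCG on either strand in 33.3% and 10.2%, and TATAAA on either strand in 12.7% and 15.7%. Windows of 20 bases before to 20 bases after the start are printed for Rpl3l and for members named below, with the pyrimidine run in capitals where one was found. Rpl3l, Rps27, Rps18 and Rpl35 fell after MI, Rpl15 and Rps6 did not pass the test, and the last 3 windows, of members that fell (Rps28 and Rpl37a) or rose (Rpl7a), hold no run that opens within these 10 bases. That of Rpl7a does hold a pyrimidine run across the start, 19 bases from its first C, but it opens 12 bases before the start and so falls outside the rule.
Rpl3l (chr17:24727806-24727845, plus strand): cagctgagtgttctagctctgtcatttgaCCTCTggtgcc
Rps27 (chr3:90213629-90213668, minus strand): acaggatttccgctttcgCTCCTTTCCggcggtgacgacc
Rps18 (chr17:33955646-33955685, minus strand): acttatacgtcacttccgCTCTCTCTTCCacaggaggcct
Rpl35 (chr2:39005112-39005151, minus strand): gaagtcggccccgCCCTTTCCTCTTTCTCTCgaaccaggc
Rpl15 (chr14:18270967-18271006, minus strand): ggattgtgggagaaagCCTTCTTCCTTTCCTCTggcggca
Rps6 (chr4:86857348-86857387, minus strand): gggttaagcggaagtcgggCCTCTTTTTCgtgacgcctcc
Rps28 (chr17:33824543-33824582, minus strand): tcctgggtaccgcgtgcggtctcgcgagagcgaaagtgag
Rpl37a (chr1:72711240-72711279, plus strand): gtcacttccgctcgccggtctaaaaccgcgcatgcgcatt
Rpl7a (chr2:26910787-26910826, plus strand): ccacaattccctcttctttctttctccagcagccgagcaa
The run in Rpl3l is 5 bases long and opens 9 bases after the listed start, while those of Rpl35 and Rpl15 are 18 and 17 bases long and open before it. Members with a run had a median log2 change after MI of -0.35 (36 tested) and those without one of -0.45 (24 tested), and these are given as a description only. Counting, after the values were seen, any run with at least 5 bases within 10 bases of the start, wherever it opens, gave 37 of 63 members (58.7%), 30.5% of all genes and medians of -0.35 (34 tested) and -0.45 (26 tested).

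Levels differed widely between members. Mean FPKM over the 8 libraries was highest for Rplp0 (339), which anchors the acidic stalk, then for Rps2 (259), Rps15 (236), Rplp1 (214) and Rpl4 (213). The lowest levels belonged to paralogs and copies: Rpl10l averaged 0.0191 FPKM and was listed at 0 in all sham libraries, Rpl39l averaged 0.0299, Rpl32l, which the table types as a processed pseudogene, averaged 0.347, and Rpl22l1 averaged 2.54. Rps28, a small-subunit protein at the messenger exit site, averaged 3.34 FPKM. These are levels of the table's gene models, and the order depends on them. Rps24 averaged 36.8 FPKM as a gene, while its transcript ENSMUST00000223999 alone averaged 220 FPKM. The share of reads held by pseudogene copies is given below.

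Comparing MI with sham hearts asks whether the ribosomal protein messages shifted with the remodelling of the heart. After MI, 27 of the 82 members were lower and 2 were higher relative to the other genes (edgeR on TMM-scaled counts, genotypes averaged, adjusted p under 0.05), against 18.3% of all genes tested called lower and 22% called higher. The median log2 change of the members was -0.37, against 0.03 over all genes, and 72 members lay below 0 and 10 above. Small-subunit genes (12 of 32 lower, none higher, median -0.39) and large-subunit genes (15 of 50 lower, 2 higher, median -0.35) gave these values without a test between them. In 13 members the 4 MI libraries lay wholly below the 4 sham libraries, and in 0 wholly above, beside 19.5% and 20.9% of all genes.

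Apart from Rpl3l, the largest falls described here were in small, core proteins of both subunits. Rpl36, a large-subunit protein, was at 18.5, 31.9, 50.1 and 33.7 CPM in sham and at 14.4, 13.8, 13.6 and 11.6 CPM after MI. The groups did not overlap, and the log2 change was -1.28 ± 0.21 (SE, adjusted p = 0.00401). Rps27, the zinc-binding small-subunit protein also known as metallopanstimulin, was at 11.5, 20.9, 7.40 and 12.7 CPM in sham and at 12.9, 4.73, 4.09 and 2.44 CPM after MI. Its fall of -1.25 ± 0.39 (adjusted p = 0.0406) went with overlap, because the library labelled fl/fl-MI 1 stood within the sham range. Rps28 ranged from 6.50 to 12.7 CPM in sham and from 2.21 to 5.78 CPM after MI (log2 change -1.16 ± 0.27, adjusted p = 0.0142), without overlap. Rps29, a zinc-binding protein of the small-subunit head, ranged from 10.8 to 19.8 CPM in sham and from 5.93 to 8.09 CPM after MI (-1.004 ± 0.17, adjusted p = 0.00501). For Rpl37a (-0.92 ± 0.21, adjusted p = 0.0124) and Rpl32 (-0.81 ± 0.20, adjusted p = 0.0177) the lowest sham library, labelled fl/fl-Sham 1, lay within the MI range.

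Only Rpl3 and Rpl7a were called higher, and the call of Rpl7a is uncertain. Rpl7a, a large-subunit protein, was at 45.1, 52.6, 51.1 and 61.7 CPM in sham and at 88.5, 69.8, 59.5 and 60.7 CPM after MI (log2 change 0.39 ± 0.12, adjusted p = 0.0401). The 2 groups overlapped at about 60 CPM, and most of the separation came from the libraries labelled fl/fl-MI. Pseudogene copies named after Rpl7a held 56.4% of the counts of member and copies, and summed with them it changed by -0.20 (adjusted p = 0.139). The number of calls rested on single libraries. More members were called lower without the library labelled fl/fl-MI 1, and fewer without any other library. The drop was largest without those labelled fl/fl-Sham 2, CKO-Sham 1, CKO-MI 1 and CKO-MI 2, left out in turn. The share of all genes called lower moved the same way, except that it rose without fl/fl-MI 2. Without fl/fl-Sham 2, CKO-Sham 1, CKO-MI 1, CKO-MI 2 and fl/fl-MI 1, in this order, the member median was -0.28, -0.27, -0.42, -0.36 and -0.48. All 29 called members kept their direction whichever library was left out. The count of higher members was 0 without any 1 sham library and without either library labelled CKO-MI, 1 (Rpl3) without that labelled fl/fl-MI 1, and 4 (Rpl3, Rpl7a, Rpl10 and Rpl15) without that labelled fl/fl-MI 2.

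The sign of most changes depended on what the counts were scaled to. On log2(FPKM + 1), tested with limma, the median change of the members was 0.19 instead of -0.37, with 60 members above 0 and 22 below, and 12 were called higher and 2 lower (Rpl3l and Rpl36), beside 50.1% and 5.97% of all genes. Between both scales 50 of the 82 members changed sign. The shift was nearly the same for each of them, from 0.47 to 0.71 with a median of 0.57 on the log2 scale. The largest shifts among those that changed sign were those of Rpl38 (-0.61 by TMM, 0.06 by FPKM), Rps26 (-0.30 and 0.28) and Rpl31 (-0.51 and 0.07). All genes together had a median change of 0.41 in FPKM, so that relative to it the members stood at -0.22, with 66 of 82 below it, while relative to the TMM median they stood at -0.40, with 73 below. The gap to all genes depended on the value added before the logarithm: with 0.1 instead of 1 added to the FPKM, the members stood at -0.36 relative to all genes. Scaling to library totals without TMM factors gave 0.19 for the members and 0.59 for all genes, a gap of -0.41, and TPM gave 0.75 and 0.92. Hence the members lay below the typical gene on each of these scales, although their own sign differed.

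**Figure D1:**
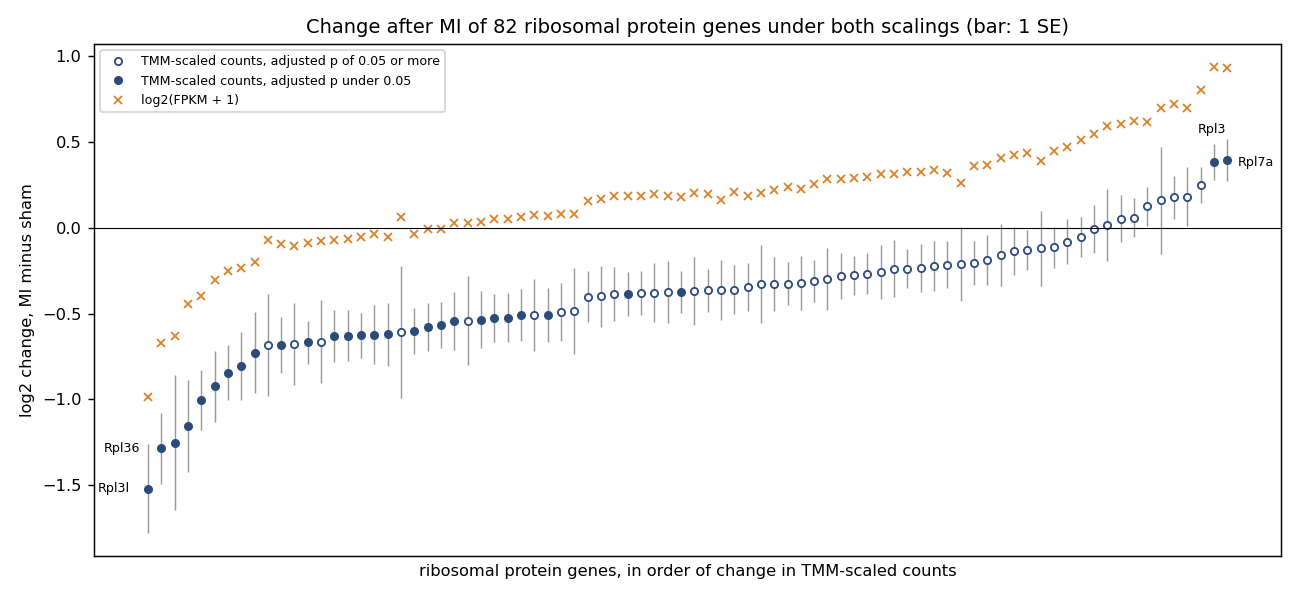
Log2 change after MI (y axis, MI minus sham, genotypes averaged) of the 82 tested ribosomal protein genes (x axis, in order of change), as TMM-scaled counts (circles with 1 SE, filled at an adjusted p under 0.05) and as log2(FPKM + 1) (crosses). The crosses run parallel to the circles at a median distance of 0.57, so 50 genes lie on opposite sides of 0 on the 2 scales, whereas Rpl3l and Rpl36 are below 0 and Rpl3 and Rpl7a above 0 on both.

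The share of mitochondrial reads differed between the groups as well. Genes encoded by mitochondrial DNA held 43.1% to 46.4% of all counts in sham hearts and 19.9% to 24.2% after MI. As a share of all counts, the ribosomal protein genes went from 0.733% to 1.12% in sham to 0.936% to 1.41% after MI, and as a share of the counts that were not mitochondrial from 1.37% to 2.03% in sham to 1.24% to 1.76% after MI. These ranges overlapped on either basis. With mitochondrially encoded genes left out before TMM the median change of the members was -0.40, with 30 lower and 1 higher, beside 19.4% and 20.5% of all genes. Per library, the member median relative to the mean sham level was lowest in the libraries labelled CKO-MI (-0.48 and -0.56 by TMM), at -0.04 and -0.34 in those labelled fl/fl-MI, and spread from -0.34 (fl/fl-Sham 1) to 0.37 (CKO-Sham 1) among sham hearts.

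**Figure D2:**
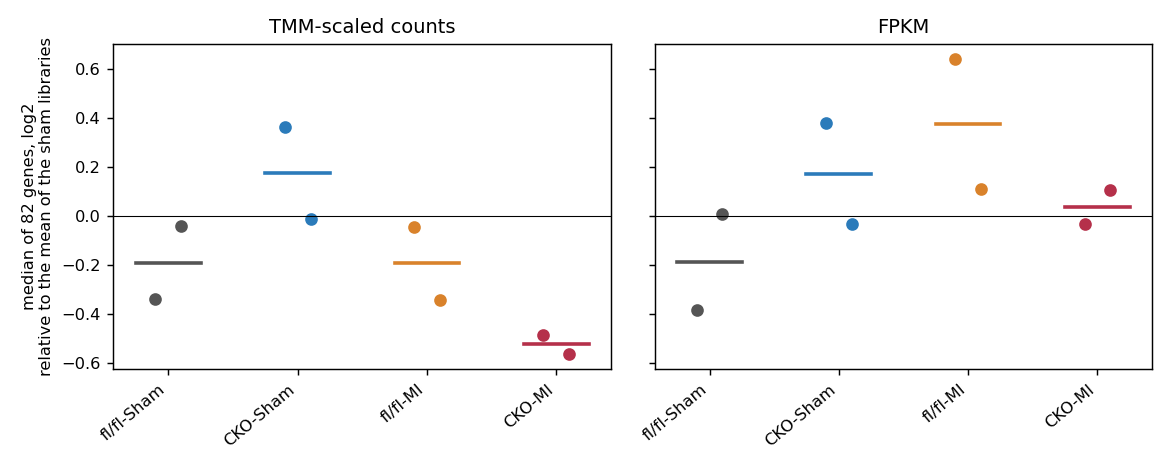
Median over the 82 genes of the log2 level relative to the mean of the 4 sham libraries (y axis) for each library (points, by labelled group; bar, mean of the 2 libraries), in TMM-scaled counts on the left and FPKM on the right. By TMM the libraries labelled CKO-MI lie lowest, at -0.48 and -0.56, while by FPKM that labelled fl/fl-MI 1 lies highest, at 0.64.

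Changes were more negative in shorter messages. Among 80 members with a known leading transcript, length and log2 change after MI had a Spearman correlation of 0.52 across genes, which share libraries and are not independent. Over all 12250 genes with a length the correlation was 0.22. Members with leading transcripts up to 600 bases had a median change of -0.54 (25 members, 11 called lower), those over 600 and up to 1000 bases -0.33 (29 members, 8 lower), those over 1000 and up to 2000 bases -0.27 (21 members, 5 lower) and the 5 longer ones -0.01. All genes in the same length classes had medians of -0.68, -0.37, -0.08 and 0.15. Thus the member medians were slightly above those of all genes in the 2 shorter classes and below them in the 2 longer ones. The messages were fragmented before reverse transcription, and the part of length in the change was not tested further.

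**Figure D3:**
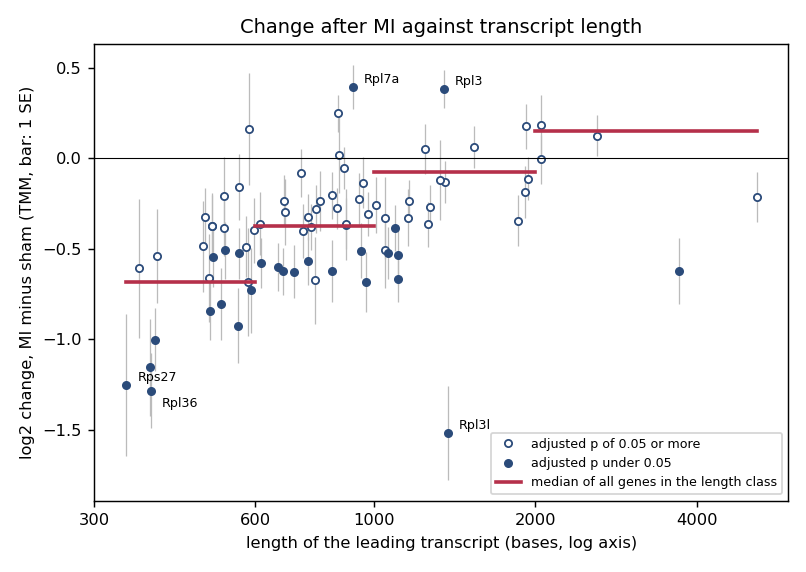
Log2 change after MI in TMM-scaled counts (y axis, bars 1 SE) of 80 ribosomal protein genes against the length of their leading transcript (x axis, bases, log axis), filled where the adjusted p is under 0.05. Red lines give the median of all tested genes in each length class (-0.68, -0.37, -0.08 and 0.15), and Rpl3l lies far below the line of its class while Rpl3 and Rpl7a lie above theirs.

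With genotypes averaged, Rpl3 and Rpl3l moved in opposite directions after MI. Between the libraries labelled CKO both were lower in TMM-scaled counts and neither was called, as given below. Rpl3 (ENSMUSG00000060036, chromosome 15, 80077791 to 80091868, minus strand) was at 41.6, 46.9, 73.4 and 61.4 FPKM in sham and at 135, 107, 82.2 and 103 FPKM after MI. Rpl3l (ENSMUSG00000002500, chromosome 17, 24727820 to 24736143, plus strand) was at 68.5, 84.4, 62.5 and 47.1 FPKM in sham and at 18.8, 31.7, 49.1 and 35.2 FPKM after MI. In FPKM all MI libraries were above all sham libraries for Rpl3, whereas for Rpl3l the library labelled CKO-MI 1 lay just above that labelled CKO-Sham 2. In TMM-scaled counts the order of overlap turned around: Rpl3l no longer overlapped (98.8 to 168 CPM in sham, 24.2 to 74.3 CPM after MI), and Rpl3 did (171 to 290.3 CPM and 240.2 to 334 CPM). Their log2 changes were -1.52 ± 0.26 (adjusted p = 0.00482) for Rpl3l and 0.38 ± 0.11 (adjusted p = 0.0264) for Rpl3. The rise of Rpl3 was called with all 8 libraries but not without either library labelled fl/fl-Sham, CKO-Sham or CKO-MI (adjusted p from 0.0547 to 0.110, log2 change 0.33 to 0.44), while the fall of Rpl3l was called whichever library was left out. The size of that fall depended on the scale: it was -0.99 on log2(FPKM + 1) (adjusted p = 0.00619, limma) and -0.43 on TPM, where it was no longer called (adjusted p = 0.0756, limma).

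The ratio of both genes does not depend on the scaling of a library. Of the summed FPKM of Rpl3 and Rpl3l, Rpl3l made up 62.2%, 64.3%, 46.0% and 43.4% in sham and 12.3%, 22.9%, 37.4% and 25.4% after MI. Every MI library was below every sham library. The log2 ratio of Rpl3l to Rpl3 was 0.24 ± 0.63 (SD, n = 4) in sham and -1.72 ± 0.86 (SD, n = 4) after MI, a difference of -1.96 or 3.89-fold (exact two-sided permutation test, p = 0.0286, the smallest that 4 against 4 allows). Without any 1 of the 4 sham libraries the exact permutation p was 0.0571, and without any 1 of the 4 MI libraries 0.0286. Between the libraries labelled fl/fl the ratio fell 8.45-fold and between those labelled CKO 1.79-fold, and the change in the latter was less by 2.24 on the log2 scale, a difference that was not tested over libraries for the ratio. Libraries labelled fl/fl-Sham also had a higher Rpl3l share than those labelled CKO-Sham, by values that did not overlap in 2 against 2 libraries. All these ratios rest on the table's gene models, where Rpl3 averaged 81.3 FPKM and Rpl3l 49.7 FPKM. Their leading coding transcripts averaged 132 and 58.1 FPKM. On those transcripts the libraries labelled CKO-Sham 1 (Rpl3 142, Rpl3l 72.0 FPKM) and CKO-MI 1 (121 and 57.9 FPKM) nearly met in ratio. The ratio of transcripts was not tested.

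**Figure D4:**
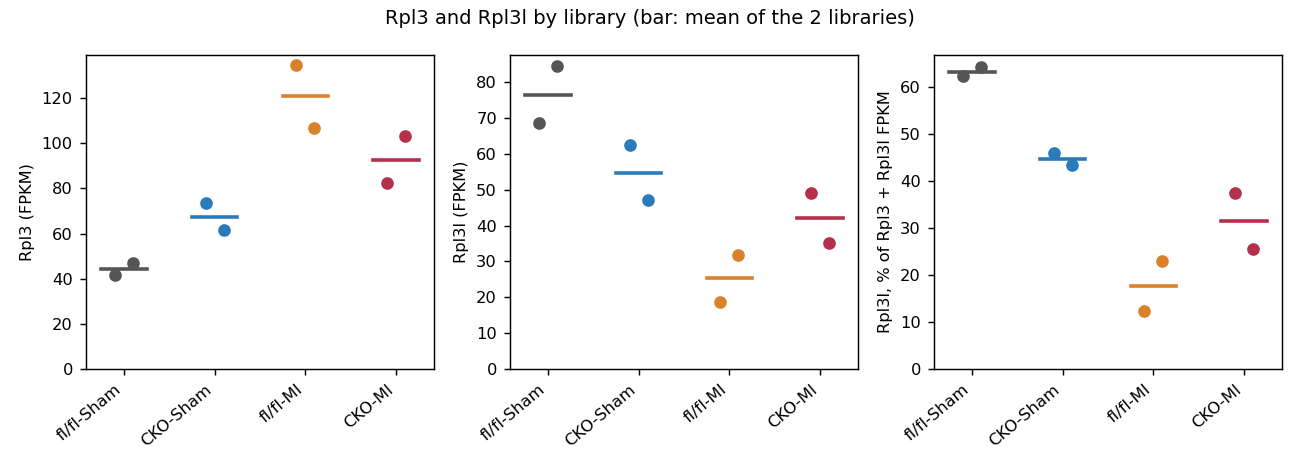
FPKM of Rpl3 (left), FPKM of Rpl3l (middle) and the share of Rpl3l in their summed FPKM in percent (right) for each library (points, by labelled group; bar, mean of the 2 libraries), on axes that start at 0. The share lies between 43.4% and 64.3% in the 4 sham libraries and between 12.3% and 37.4% in the 4 MI libraries.

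Rpl3l is a gene of muscle cells, and in bulk tissue fewer cardiomyocytes and less Rpl3l message per cardiomyocyte cannot be told apart from its level alone. The summed CPM of 12 cardiomyocyte markers was 41095 to 46691 in sham and 31300 to 56044 after MI, with 5 of the markers higher and 2 lower by edgeR. Set against this sum in the same library, Rpl3l amounted to 0.240% to 0.360% in sham and 0.0773% to 0.134% after MI, again without overlap. Markers within this sum themselves rose or fell, so it does not count cardiomyocytes, and the level of Rpl3l per cell was not tested. The other muscle-restricted factor on the list of muscle paralogs, Eef1a2, changed by 0.39 ± 0.15 (adjusted p = 0.0672), and its ratio to Eef1a1 differed by 0.10 on the log2 scale between MI and sham (exact permutation p = 0.857). That average joined opposite moves by label. The share of Eef1a2 in the summed FPKM of the pair was 25.3% and 24.1% in sham and 15.4% and 16.3% after MI between the libraries labelled fl/fl, and 12.7% and 14.7% in sham and 29.4% and 19.2% after MI between those labelled CKO. Eef1a2 itself rose between the latter (0.96 ± 0.21, adjusted p = 0.0196, edgeR) and did not pass between the former (-0.17 ± 0.20, adjusted p = 0.587), with an interaction of 1.13 ± 0.29 (adjusted p = 0.574). Of the 2 genes on that list, Rpl3l was thus the one called with genotypes averaged.

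Other paralog pairs were measured in the same way, 7 pairs in all with values in every library. Rpl36al, a close copy of Rpl36a, held 60.0% to 62.6% of the summed FPKM of the pair in sham and 51.7% to 57.7% after MI, a log2 ratio lower by 0.41, again with complete separation (exact permutation p = 0.0286). Adjusted over the 7 pairs by Benjamini-Hochberg, the p was 0.10 for both this pair and Rpl3l to Rpl3. Rps27l, the p53-responsive paralog of Rps27, went from 38.5% to 68.6% of the pair in sham to 47.8% to 80.0% after MI (log2 ratio higher by 0.95, exact permutation p = 0.171). Rpl7l1 to Rpl7 (0.36, p = 0.114), Rpl22l1 to Rpl22 (-0.37, p = 0.257) and Rps4l to Rps4x (-0.34, p = 0.200) overlapped too, by the same exact permutation test. Rpl10l and Rpl39l were listed at 0 in several libraries, so no ratio is given for them. Rps4l by itself fell after MI (-0.63 ± 0.15, adjusted p = 0.0156), as did Rpl6l (-0.37 ± 0.12, adjusted p = 0.0483), which the table types as a processed pseudogene.

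Within the libraries labelled fl/fl, 2 members rose after MI and 2 fell, against 10.1% and 8.45% of all genes. They were Rpl3 (0.88 ± 0.15, adjusted p = 0.0125), Rpl7a (0.70 ± 0.17, adjusted p = 0.0368), Rpl3l (-2.12 ± 0.37, adjusted p = 0.0133) and Rps4l (-0.89 ± 0.21, adjusted p = 0.0321), and the member median was -0.04. The sign of this median turned on single libraries, as it was 0.11 without that labelled fl/fl-Sham 2, 0.12 without fl/fl-MI 2 and -0.23 without fl/fl-MI 1. The 4 calls did not hold without either library labelled fl/fl-Sham, and the share of all genes called fell in these fits as well. Which members were called also changed when libraries of the other labels were left out. Between the libraries labelled CKO, none rose and 36 fell, against 12.8% and 11.9% of all genes, with a member median of -0.71. At an unadjusted p under 0.05, 0 rose by edgeR and 0 by DESeq2. DESeq2 called 50 lower at an adjusted p under 0.05, beside 33.7% of all genes called in either direction. On FPKM with limma the medians were 0.52 between the libraries labelled fl/fl (12 higher, 1 lower) and -0.13 between those labelled CKO (2 higher, 2 lower). All genes had a median of 0.42 between the libraries labelled fl/fl (34.2% higher, 3.24% lower) and of 0.39 between those labelled CKO (33.0% and 3.81%). The largest called falls by edgeR between the latter were in Rps28 (-1.76 ± 0.39, adjusted p = 0.0203), Rpl36 (-1.73 ± 0.30, adjusted p = 0.0102) and Rpl37a (-1.48 ± 0.30, adjusted p = 0.0158). Rpl3 (-0.11 ± 0.15, adjusted p = 0.613) and Rpl3l (-0.92 ± 0.36, adjusted p = 0.105) did not pass in that comparison. Most or all of these falls were no longer called without any 1 of the libraries labelled CKO. Fewer were called without either labelled fl/fl-Sham, and more without either labelled fl/fl-MI. The share of all genes called moved in the same direction in each of these fits. Without CKO-Sham 1, CKO-Sham 2, CKO-MI 1 and CKO-MI 2, by label, the member median was -0.54, -0.92, -0.79 and -0.72.

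Between genotypes no member passed at an adjusted p under 0.05 by edgeR. In sham hearts 0.00713% of all genes (1 gene) passed, and after MI and in the interaction of genotype and MI 0%. At an unadjusted p under 0.05, 13 members were higher in the libraries labelled CKO-Sham than in those labelled fl/fl-Sham (1.89% of all genes), with a member median of 0.37 and 77 of 82 above 0. After MI 5 members were lower in the libraries labelled CKO-MI (5.24% of all genes), with a median of -0.28 and 79 below 0. For the interaction, 29 members were lower (4.94% of all genes) and 1 higher, with a median of -0.64. DESeq2 called 1 member in sham and 1 in the interaction, in both cases Rpl3, and 0 after MI (7 at an unadjusted p under 0.05), and limma on FPKM called none of them (3, 2 and 14 at an unadjusted p under 0.05 in sham, after MI and in the interaction).

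Rpl3 was the member with the smallest p in sham hearts (0.61 ± 0.15 higher in the libraries labelled CKO-Sham, unadjusted p = 0.00452) and in the interaction (-0.99 ± 0.21, unadjusted p = 0.00226, adjusted p = 0.560). Next in sham were Rpl34 (1.11 ± 0.36, unadjusted p = 0.0175) and Rps10 (0.57 ± 0.20, unadjusted p = 0.0256), which followed Rpl3 in the interaction as well (Rpl34 -1.80 ± 0.51, unadjusted p = 0.00918, and Rps10 -1.05 ± 0.29, unadjusted p = 0.00785). After MI the smallest were Rpl22l1 (-0.83 ± 0.30, unadjusted p = 0.0297), Rps27 (-1.43 ± 0.56, unadjusted p = 0.0376) and Rpl26 (-0.56 ± 0.22, unadjusted p = 0.0395). The sham difference and the interaction share the sham libraries, and the library labelled CKO-Sham 1 had the highest member median of all 8. Without it the sham median was 0.16 and the interaction median -0.44, with fewer members at an unadjusted p under 0.05 in both.

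These unadjusted counts moved with most single libraries. The share of all genes at that level is not given for these fits, so only the member medians are listed. In sham the median was 0.25 without that labelled fl/fl-Sham 1, 0.53 without fl/fl-Sham 2 and 0.545 without CKO-Sham 2. It stayed at 0.37 without any 1 MI library. After MI it was -0.12 without fl/fl-MI 1, -0.43 without fl/fl-MI 2, -0.28 without CKO-MI 1 and -0.24 without CKO-MI 2. In the interaction it was -0.52 without fl/fl-Sham 1, -0.84 without fl/fl-Sham 2 and -0.81 without CKO-Sham 2. There it was -0.49 without fl/fl-MI 1, -0.79 without fl/fl-MI 2, -0.66 without CKO-MI 1 and -0.60 without CKO-MI 2. The member medians kept their sign in each of these fits.

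**Figure D5:**
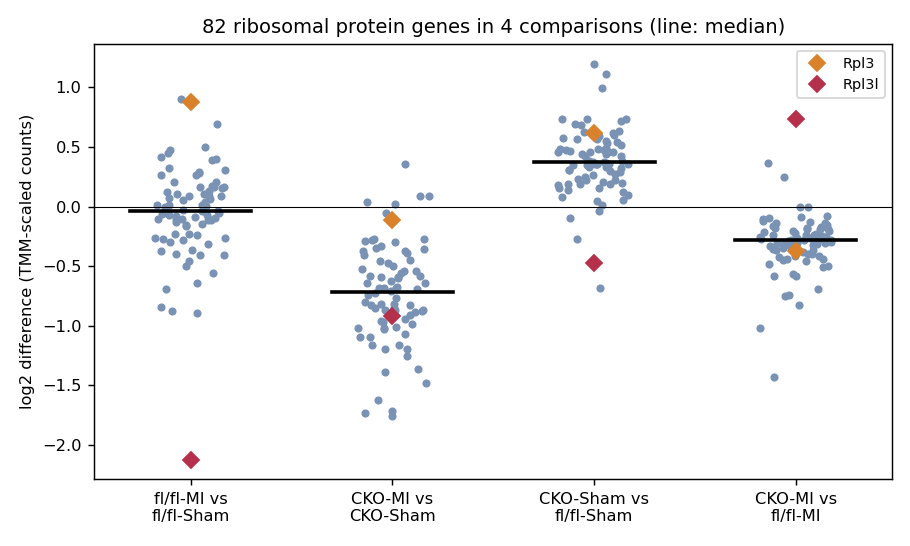
Log2 differences in TMM-scaled counts (y axis) of the 82 tested genes in 4 comparisons of labelled groups (x axis), each dot 1 gene, the line their median, with Rpl3 and Rpl3l as diamonds. The medians are -0.04, -0.71, 0.37 and -0.28 from left to right, and Rpl3 and Rpl3l lie on opposite sides of 0 in each comparison except between the libraries labelled CKO-MI and CKO-Sham, where both are below 0.

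By role, the acidic stalk, which recruits the elongation factors, had 1 of 3 genes lower after MI. Rplp2 fell by 0.68 ± 0.16 (adjusted p = 0.0161), and Rplp1 (-0.38 ± 0.17, adjusted p = 0.121) and Rplp0 (-0.13 ± 0.12, adjusted p = 0.403) did not pass. Rpl5 (-0.01 ± 0.14, adjusted p = 0.974) and Rpl11 (-0.20 ± 0.13, adjusted p = 0.244), which form the 5S particle that can hold back Mdm2, were not called. Diamond-Blackfan anemia is the inherited red-cell aplasia caused by loss of 1 allele of a ribosomal protein gene. Of the 18 members linked to it, 7 were lower and none higher (median -0.51), led by Rps27 and Rps28. This count and that of the stalk stand beside 27 of all 82 members lower, and 18.3% of all genes lower and 22% higher. Rps6, the target of the S6 kinases, did not pass (-0.05 ± 0.11, adjusted p = 0.731). Among the ribosomal proteins that the names leave out, those that fell included Rpl36al (-0.74 ± 0.14, adjusted p = 0.00793) and Fau, a ubiquitin-like fusion with Rps30 (-0.54 ± 0.17, adjusted p = 0.0383). Rps3a1 (-0.13 ± 0.11, adjusted p = 0.395), at 303 FPKM on average, and Rack1 (-0.03 ± 0.11, adjusted p = 0.856) did not pass.

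The other lists of genes for translation and ribosome production differed in their balance of calls. Initiation factors had 15 of 28 higher and 3 lower after MI (median 0.30), among them Eif2s3x (1.09 ± 0.10, adjusted p = 0.000746) and Eif4g1 (1.07 ± 0.14, adjusted p = 0.00177), with Eif1 (-0.55 ± 0.16, adjusted p = 0.0276) and Eif3f (-0.39 ± 0.10, adjusted p = 0.0179) lower. Elongation and termination factors had 4 of 13 higher and 1 lower (median 0.24), with the release factors Etf1 (1.03 ± 0.09, adjusted p = 0.000689) and Gspt1 (0.95 ± 0.08, adjusted p = 0.000676) at the top and Eef1d (-0.63 ± 0.11, adjusted p = 0.00595) lower. Ribosome biogenesis and nucleolar factors had 16 of 34 higher and 1 lower (median 0.34), with Rrp12 (1.22 ± 0.20, adjusted p = 0.00416) and Ddx21 (1.03 ± 0.12, adjusted p = 0.00133) the largest and Nop56 (-0.30 ± 0.09, adjusted p = 0.0373) the lower one. RNA polymerase I and its factors, which make ribosomal RNA, had 1 of 20 higher, Rrn3 (0.51 ± 0.08, adjusted p = 0.00403), and 6 lower (median -0.09), led by the subunits shared between polymerases Polr2f (-1.28 ± 0.16, adjusted p = 0.00177) and Polr2k (-0.85 ± 0.19, adjusted p = 0.0124). Regulators of mTORC1 and of TOP messages had 7 of 21 higher and 3 lower (median 0.24), including Myc (2.12 ± 0.30, adjusted p = 0.00238), Larp1 (0.74 ± 0.10, adjusted p = 0.00220), Mycn (-1.58 ± 0.37, adjusted p = 0.0154) and the S6 kinase Rps6kb2 (-0.88 ± 0.11, adjusted p = 0.00150). Other messages with a TOP start, some of them also on these lists, had 2 of 20 higher, Nap1l1 (0.59 ± 0.14, adjusted p = 0.0147) and Eif4b (0.41 ± 0.12, adjusted p = 0.0283), and 5 lower (median 0.05). These counts stand beside the same background of 22% higher and 18.3% lower.

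Cell type markers moved with MI as well. Cardiomyocyte markers, summed above, were the most abundant of these lists in each library, as the label myocardium asks. Fibroblast markers were higher in 9 of 10 (summed 1597 to 1770 CPM in sham, 2507 to 7467 CPM after MI), macrophage markers in 4 of 10 (510 to 580 CPM and 499 to 1271 CPM), erythroid genes in 5 of 5 (79.7 to 551 CPM and 272 to 753 CPM) and atrial genes in 1 of 5 (135 to 594 CPM and 2547 to 19857 CPM, highest in that labelled fl/fl-MI 2), and in these 4 lists none was lower. Endothelial markers were lower in 7 of 8 (1772 to 2167 CPM and 643 to 1058 CPM). Of smooth muscle markers 1 of 5 was lower (276 to 427 CPM and 244 to 448 CPM), and of skeletal muscle markers 1 of 3 (1421 to 2020 CPM and 605 to 1539 CPM). None of the 4 lymphocyte markers tested, of 9 listed, was called (31.4 to 39.9 CPM and 27.2 to 51.7 CPM). The part of these shifts in the change of the ribosomal protein genes was not tested, and fewer cells of a type and less message per cell cannot be told apart for any of them.

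Processed pseudogenes, copies of a message inserted back into the genome, can share reads with their parent genes. The table lists 233 genes with "-ps" names, 86 of them at 0.5 FPKM or more, and 55 members had at least 1 copy named after them. Copies held over 10% of the counts of member and copies together for 16 members and more than the member itself for 3, Rpl17 (88.8%), Rpl21 (61.9%) and Rpl7a (56.4%). The levels of these members are therefore uncertain. For Rpl7a the copies' share was 66.1% in sham and 49.2% after MI, and for Rps12 58.3% and 45.5%, so the copies' share was lower after MI for both. When each member was summed with its copies, an alternative chosen after the values were seen, Rpl7a changed by -0.20 (adjusted p = 0.139), opposite in sign to the member alone. With this summing 31 members were lower and 1, Rpl3, was higher, beside 18.4% and 22.1% of all genes. Of the 29 called members, 28 were still called in the same direction.

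Transcript levels were read for 3 members. Rpl3 was mainly its coding transcript ENSMUST00000081650 (53.8% to 84.9% of the gene's FPKM over the 8 libraries), with 8.3% to 23.3% in ENSMUST00000187578, which retains an intron. A further transcript with a retained intron, ENSMUST00000188025, held 1.0% to 28.6%. It was highest in the library labelled fl/fl-Sham 1, where the coding share was lowest. For Rpl3l the coding transcript ENSMUST00000170239 made up 92.1% to 99.5%. Rps24, whose short terminal exons are alternatively spliced, had 46.2% to 73.4% in ENSMUST00000223999 and a second coding transcript, ENSMUST00000169826, at 18.7%, 19.1%, 28.3% and 21.4% in sham and at 41.1%, 27.3%, 27.7% and 35.1% after MI. The lowest MI libraries overlapped the sham library labelled CKO-Sham 1. These shares come from the authors' estimates of FPKM per transcript, which for transcripts that differ by a few bases rest on few distinguishing reads.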

How the data were processed

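The members, gene lists and tests were chosen with earlier results of these data known. Poly(A) RNA was sequenced as paired-end reads, and cutadapt 1.9 and FastQC are named in the submitters' processing notes. The aligner, counter, annotation and genome build are not given in the sources used here. Of the 85 member identifiers all are in GENCODE M21 (GRCm38), 73 with the same coordinates. The authors deposited whole-number counts per gene and transcript, without normalization, of which 31.4% of values from 1 to 39 were multiples of 4, so that 1 count may not stand for 1 read pair, and FPKM, which scale to length and library size.

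Genes averaging 0.5 FPKM or more were kept, and their counts were fitted with edgeR 4.0.16 (R 4.3.3) by its quasi-likelihood test, with TMM normalization and 1 mean per group over all 8 libraries. MI against sham averaged the genotypes. P-values were Benjamini-Hochberg adjusted over all 14028 genes and called under 0.05, and standard errors come from the log2 fold change and F statistic. CPM are counts scaled to a common library size after TMM. Alternatives were limma 3.58.1 on log2(FPKM + 1), on log2(FPKM + 0.1) and on TPM, DESeq2 1.42.0, other scalings and filters, counts divided by 4, a replicate block, only the libraries compared and leaving out each library. Ratios of paralogs were tested by exact two-sided permutation. The scripts were tested on simulated counts with known changes. Named genes were Rpl3, Rpl3l, paralog pairs, the 8 called members with the largest change in each direction, the 5 highest and 5 lowest levels, the 3 smallest p per genotype comparison, the 3 largest shifts between scalings, the stalk, 5S particle and left-out proteins, and 2 called genes per direction from the other lists. Rps6, Rpl15, Rps18, Rpl35, Rpl10 and further genes counted in groups of 5 or fewer were named after their values were seen. Some items that these rules select are not reported here.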

Additional observations from a re-analysis of the deposited data

How the results depend on the processing

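The number of members higher after MI, 2 with TMM, was 12 with limma on either FPKM scale, 63 on TPM, 13 on library totals without TMM, and 1 with mitochondrial genes left out, at a mean FPKM of at least 5, with the replicate block and with pseudogene copies added. Of all genes, 22% were called higher with TMM, 50.1% and 50.8% on the FPKM scales, 76.7% on TPM and 52.2% without TMM. The share was 19.6% to 27.4% in the fits with 1 member higher. The number lower, 27, was 2 with limma on either FPKM scale, 0 on TPM and 2 without TMM, and between 19 and 39 under the other alternatives over all libraries. Of all genes, 18.3% were called lower with TMM, 5.97% and 5.88% on the FPKM scales, 1.98% on TPM and 5.72% without TMM. Under those other alternatives the share was 6.77% to 25.2%. The median change, -0.37, was 0.19 with limma at a pseudocount of 1, 0.20 at a pseudocount of 0.1, 0.75 on TPM and 0.19 without TMM. Rpl3l changed by -0.43 on TPM (adjusted p = 0.0756). In CKO-Sham against fl/fl-Sham 1 member was called by DESeq2 and when only the libraries compared were fitted, and in the interaction 1 by DESeq2, each time Rpl3. No such restricted fit applies to MI against sham, which uses all libraries.

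With each library left out, members higher ranged from 0 to 4, members lower from 6 to 45, the median from -0.48 to -0.27, members called in CKO-MI against fl/fl-MI from 0 to 1 (Rpl7l1, without fl/fl-MI 1), Rpl3 from 0.33 to 0.44 and the log2 ratio of Rpl3l to Rpl3 from -2.29 to -1.59 (exact permutation p = 0.0571 without any 1 sham library and 0.0286, the smallest that 4 against 3 allows, without any 1 MI library). The share of all genes called moved with the library left out as well, so these counts alone do not show a change particular to the members. A lone library was assumed to vary like the other groups. Libraries with the same replicate number did not deviate together (correlations from -0.21 to 0.06). With the replicate block 1 member was higher and 20 lower, Rpl7a was no longer called (adjusted p = 0.0643), and the ratio of -1.96 had p = 0.0556, the smallest that exact permutation within replicate numbers allows. With 2 libraries a group, depth limits these results less than the spread between libraries.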
